A study of Mus musculus with 34 samples.

Results

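The growth hormone, STAT5 and IGF1 axis was followed in liver tumors and tumor-free livers of mice through 10 genes, Ghr, Igf1, Igfals, Stat5a, Stat5b, Socs2, Cish, Bcl6, Igfbp1 and Igfbp3. They were taken as every probe that the platform annotation gives one of these symbols, which is 16 of the 45281 probes on the array, and the 10 genes stand among 19057 genes with a symbol of their own. Growth hormone from the pituitary binds its receptor GHR on the hepatocyte, JAK2 phosphorylates STAT5, and STAT5 turns on Igf1, Igfals and the feedback inhibitors Socs2 and Cish while it represses Bcl6, itself a repressor that competes for STAT5 sites. IGF1 circulates in a complex with IGFBP3 and the acid-labile subunit encoded by Igfals, whereas Igfbp1 is an insulin-repressed binding protein of fasting and stress. In male rodents growth hormone is released in pulses, and the activity of hepatic STAT5 rises and falls with them.

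The study's methods describe the mice as males of strain C3H/HeNCrl. Liver RNA was hybridized to Illumina mouse BeadChips, 1 array for each of 34 mice on 8 BeadChips. The tumor-free (non-HCC) livers came from 6 unirradiated mice (sham, 0 Gy), 4 mice given low-LET γ-rays (labels of 3 to 7 Gy) and 10 mice given 1 Gy of high-LET ions. The hepatocellular carcinomas (HCC) came from 4 unirradiated mice (spontaneous), 3 mice given 2, 2 and 3 Gy of low-LET γ-rays and 7 mice given 0.1 to 1 Gy of high-LET iron or silicon ions. By these labels the doses of low-LET tumors and low-LET tumor-free livers differ, although the study's methods give a lower γ-ray range than the labels of these livers. High-LET doses differ as well, with 0.1 to 1 Gy for the tumors and 1 Gy for all tumor-free livers. The study describes its irradiated tumor-free livers as age-matched and taken after iron ions or γ-rays, whereas the high-LET tumors followed iron or silicon ions. The high-LET comparison is therefore matched neither for dose nor, by that description, for ion. The ions of the high-LET tumors were not compared, animals were killed when moribund or at the end of the study, and age at sampling was not analysed here. Tumor and tumor-free tissue came from different mice, and p-values measure the spread between mice. Median raw intensities were 93.1 to 127 per array, and 20378 to 24284 probes stood above a background limit set on each array. The log2 of the summed signal of 6 hepatocyte markers, which mostly follows the brightest of them, was 16.0 to 16.3 on all 34 arrays. The 1 annotated probe of Alb, the albumin gene, was dim (group means of 6.73 to 7.37). In whole tissue, fewer cells of a type and less RNA per cell cannot be told apart.

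All levels below are normalized log2 signals of the brightest probe of a gene, so that a difference of 1 is a doubling. Differences were tested with limma across 45219 probes and a gene was called where its p, adjusted by Benjamini-Hochberg, was under 0.1 and its fold change above 1.3. Levels were not compared between genes, since probes differ in brightness. Fold changes of dim genes are compressed by the offset of 50 added at background correction.

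Bcl6 and Igfals were the members whose promoters held the spaced palindrome TTCNNNGAA, the letters of a STAT5 element, and their sequences are shown because both genes were lower in spontaneous and low-LET HCC. Each run gives the 250 bases before a RefSeq transcript start (GRCm38.p6), 5′ to 3′ on the gene's strand, with matches in capitals.
Bcl6, chr16:23981284-23981533, minus strand: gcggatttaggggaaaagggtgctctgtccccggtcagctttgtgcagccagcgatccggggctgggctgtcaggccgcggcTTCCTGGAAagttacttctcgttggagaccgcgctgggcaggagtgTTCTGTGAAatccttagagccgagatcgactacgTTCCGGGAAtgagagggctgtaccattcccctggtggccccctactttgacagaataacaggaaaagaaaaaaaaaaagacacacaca
Igfals, chr17:24877594-24877843, plus strand: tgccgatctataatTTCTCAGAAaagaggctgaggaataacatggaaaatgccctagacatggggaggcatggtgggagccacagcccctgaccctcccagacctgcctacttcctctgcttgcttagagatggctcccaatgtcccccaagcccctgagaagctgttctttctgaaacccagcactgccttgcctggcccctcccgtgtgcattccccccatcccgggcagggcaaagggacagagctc
Igfals, chr17:24877981-24878230, plus strand: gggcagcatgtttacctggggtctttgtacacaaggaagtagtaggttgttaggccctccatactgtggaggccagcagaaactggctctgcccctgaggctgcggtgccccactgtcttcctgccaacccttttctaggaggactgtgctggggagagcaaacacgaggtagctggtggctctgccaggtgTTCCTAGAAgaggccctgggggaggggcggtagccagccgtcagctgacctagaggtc
The Bcl6 window held 3 matches, TTCCTGGAA, TTCTGTGAA and TTCCGGGAA, which begin 168, 122 and 88 bases before the start. The match of the first Igfals window lies 236 bases before its start and that of the second 58 bases before. A second Bcl6 window (chr16:23988853-23989102, minus strand) had 1 match, TTCTCAGAA, 118 bases before the start. The pattern is its own reverse complement, so 1 search covers both strands, and it was found in 4 of 15 promoters of 9 members, against 2306 of 32851 promoters in the table (7.02%), and 104 promoters (0.317%) held 2 or more. Socs2 has no entry. These are matches of letters and not measured binding sites.

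The growth hormone receptor Ghr was lower in HCC of every origin. In sham livers its log2 signal lay between 12.01 and 12.33 (median 12.13, n = 6), in high-LET non-HCC livers between 11.66 and 12.32 (median 12.12, n = 10), and in low-LET non-HCC livers it was 12.07, 11.84, 11.85 and 11.86. The 4 spontaneous HCC read 10.42, 10.58, 10.29 and 9.83 and the 3 low-LET HCC 10.96, 10.19 and 11.02. High-LET HCC ranged from 9.58 to 11.96 (median 10.47, n = 7). The 7 spontaneous and low-LET HCC and 5 of the 7 high-LET HCC lay below all 20 non-HCC livers, and the other 2 high-LET HCC (11.96 and 11.67) fell within their range. Against sham livers Ghr fell by 1.86 ± 0.32 (SE) on the log2 scale in spontaneous HCC, a 3.64-fold drop (limma adjusted p = 0.000171). Ghr fell by 1.42 ± 0.35 in low-LET HCC (adjusted p = 0.00967) and fell by 1.43 ± 0.28 in high-LET HCC (adjusted p = 0.0013). Within BeadChips that held both groups the difference was negative on both chips for spontaneous HCC and on all 3 for high-LET HCC, where it ran from −1.55 to −0.28.

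A pair of further Ghr probes gave the same direction. The probe for transcript NM_001048178 was lower in spontaneous HCC (−2.10, adjusted p = 6.34e-06), low-LET HCC (−1.79, adjusted p = 0.000294) and high-LET HCC (−0.93, adjusted p = 0.0143). The probe for AK053579 gave −1.42, −1.17 and −1.28, each called by limma (adjusted p = 0.0129, 0.0932 and 0.0128). They parted where tumors were compared with each other. The NM_001048178 signal was higher in high-LET HCC than in the mean of spontaneous and low-LET HCC by 1.01 ± 0.23 (adjusted p = 0.0169), whereas the main Ghr probe differed by 0.21 ± 0.27 (95% interval −0.34 to 0.76, adjusted p = 0.81).

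Igf1, the circulating growth factor made by the liver under growth hormone, was also lower in HCC of every origin. Sham livers lay between 13.47 and 13.78 (median 13.60), high-LET non-HCC livers between 13.38 and 13.76 (median 13.63) and low-LET non-HCC livers between 13.52 and 13.69. Spontaneous HCC read 11.58, 13.10, 12.72 and 12.08, low-LET HCC 12.55, 12.36 and 12.90, and high-LET HCC 12.38 to 13.42 (median 13.13). Of the 14 tumors 13 were below every non-HCC liver, and the exception was a high-LET HCC at 13.42 (replicate 5). Igf1 fell by 1.25 ± 0.19 in spontaneous HCC (2.38-fold, adjusted p = 2.89e-05), by 1.02 ± 0.21 in low-LET HCC (2.03-fold, adjusted p = 0.00158) and by 0.63 ± 0.16 in high-LET HCC (1.55-fold, adjusted p = 0.0135). With BeadChip as a fixed term the high-LET difference lost its call (adjusted p = 0.109), as it did with scaling to a common median (adjusted p = 0.184), and over all 25 alternatives the adjusted p ran from 0.00159 to 0.184. The second Igf1 probe was lower in spontaneous (−1.09, adjusted p = 0.000396) and low-LET HCC (−0.86, adjusted p = 0.0125) but gave −0.22 in high-LET HCC (adjusted p = 0.571).

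**Figure D1:**
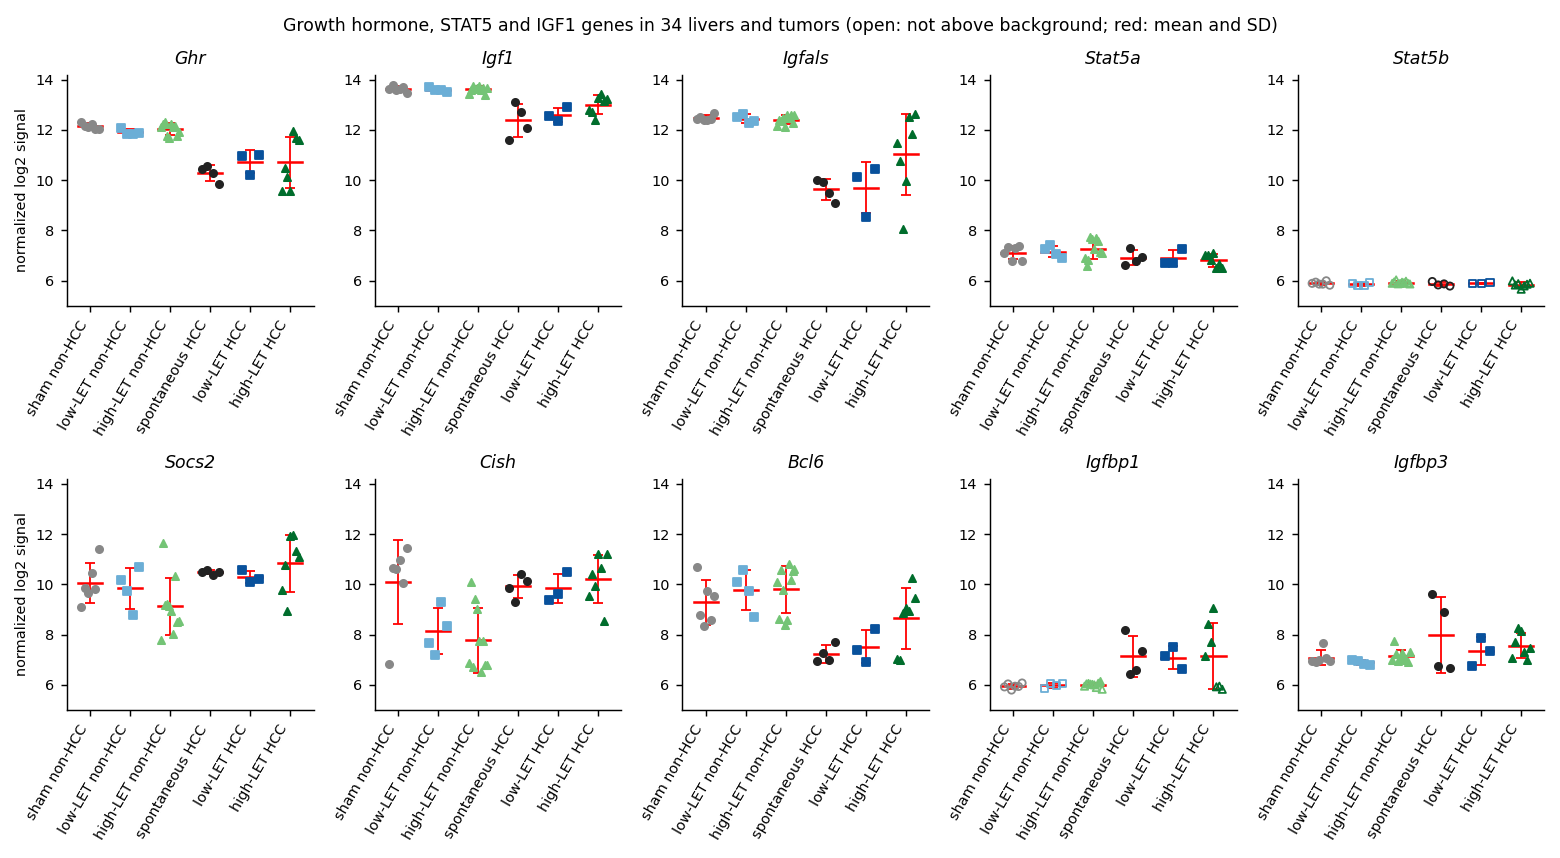
Normalized log2 signal (vertical axis) of the 10 member genes in the 6 groups (horizontal axis), with 1 point per mouse, the group mean as a bar and its SD as a line, and open points where the probe was not above background. Ghr, Igf1 and Igfals are tight in the 20 non-HCC livers and lower in nearly all HCC, Cish and Socs2 are scattered among non-HCC livers, and Stat5b is open in all 34.

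Igfals, which encodes the acid-labile subunit that holds IGF1 in the circulation, was lower in spontaneous and low-LET HCC than in any tumor-free liver. All 20 non-HCC livers lay between 12.10 and 12.65. Spontaneous HCC read 9.99, 9.91, 9.50 and 9.10, and low-LET HCC 10.10, 8.53 and 10.44. High-LET HCC were 11.46, 10.74, 8.04, 9.98, 12.50, 11.84 and 12.63. The first 2 tumor groups lay wholly below the non-HCC range, whereas high-LET HCC ran from far below it to its upper end, with replicates 5 and 7 inside it. Against sham livers Igfals fell by 2.85 ± 0.51 in spontaneous HCC (7.19-fold, adjusted p = 0.000233). It fell by 2.78 ± 0.56 in low-LET HCC (6.87-fold, adjusted p = 0.00139) and fell by 1.44 ± 0.44 in high-LET HCC (2.72-fold, adjusted p = 0.037). The high-LET call was lost under 4 of 25 alternatives (adjusted p over all 25 alternatives from 3.43e-05 to 0.27), among them the fit with BeadChip as a fixed term (adjusted p = 0.27). Without high-LET HCC replicate 3 it was −0.95 (adjusted p = 0.0649). On the 3 BeadChips with both groups the high-LET difference ran from −1.91 to 0.02.

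Of the genes that encode STAT5, Stat5a was 6.79 to 7.38 in sham livers (median 7.19), 6.57 to 7.72 in high-LET non-HCC livers (median 7.21) and 6.48 to 7.10 in high-LET HCC (median 6.83), so that the ranges overlapped. It was called in only 1 of 5 comparisons of HCC with non-HCC, that of high-LET HCC with high-LET non-HCC, where it fell by 0.44 ± 0.15 (1.36-fold, adjusted p = 0.0545). That call was lost without high-LET HCC replicate 5 or 7 and without high-LET non-HCC replicate 4 or 7 (adjusted p = 0.103 to 0.117), and with BeadChip as a fixed term, and the second Stat5a probe was not called. Stat5b, the form that carries most of the growth hormone response in male mouse liver, was not above background on any of the 34 arrays, so its probe gives no level to compare. Phosphorylation of STAT5 was not measured.

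Bcl6, the repressor that STAT5 restrains in male liver, was scattered in tumor-free livers and lowest in spontaneous and low-LET HCC. Sham livers ranged from 8.34 to 10.71 (median 9.15), low-LET non-HCC livers from 8.72 to 10.57 (median 9.93) and high-LET non-HCC livers from 8.40 to 10.79 (median 10.14). Spontaneous HCC read 6.95, 7.25, 6.99 and 7.72, low-LET HCC 7.39, 6.92 and 8.23, and high-LET HCC 7.01, 7.00, 8.85, 9.04, 8.94, 10.23 and 9.44. All 7 spontaneous and low-LET HCC and 2 high-LET HCC were below every non-HCC liver. Bcl6 fell by 2.05 ± 0.57 in spontaneous HCC (4.14-fold, adjusted p = 0.0167) and by 1.76 ± 0.63 in low-LET HCC (3.40-fold, adjusted p = 0.0916). The low-LET call was lost in 5 of 9 fits that left out 1 liver, namely low-LET HCC replicate 1 or 2 or sham replicate 1, 4 or 6 (adjusted p = 0.14 to 0.323), and with BeadChip as a fixed term (adjusted p = 0.128, all 20 alternatives 0.0151 to 0.323). In high-LET HCC the difference from sham was −0.63 ± 0.49 (95% interval −1.64 to 0.38, adjusted p = 0.556).

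Of the binding proteins, Igfbp1 was above background in 11 of 14 tumors and in 1 of 20 non-HCC livers, a high-LET one. Its signal was at most 6.14 in the 20 non-HCC livers. Spontaneous HCC read 8.17, 6.41, 6.59 and 7.35, low-LET HCC 7.14, 7.50 and 6.61, and high-LET HCC 7.15, 8.41, 7.71, 9.05, 5.92, 5.95 and 5.82. The last 3 high-LET HCC were not above background, and the other 11 tumors exceeded every non-HCC liver. Igfbp1 was at least 2.07-fold higher in spontaneous HCC than in sham livers (adjusted p = 0.0722) and at least 2.09-fold higher in high-LET HCC (adjusted p = 0.0365), bounds taken against the lowest signal above background. In low-LET HCC it was at least 2.00-fold brighter without passing the test (adjusted p = 0.159). The low-LET difference did pass with the authors' values, array weights or only the groups compared (adjusted p = 0.0183, 0.00874 and 0.00218). The high-LET call was lost with array weights (adjusted p = 0.164) and with only the groups compared (adjusted p = 0.244). The spontaneous call was lost in 6 of 10 fits that left out 1 liver (spontaneous HCC replicate 1 or 4, or sham replicate 1, 3, 4 or 5), with adjusted p up to 0.311, and with BeadChip as a fixed term (adjusted p = 0.199, all 21 alternatives 0.0081 to 0.311). Igfbp3, the main carrier of IGF1 in serum, was uneven among tumors. Spontaneous HCC read 9.63, 6.75, 8.89 and 6.65 around a sham median of 6.97, 2 above and 2 below all non-HCC livers, and no comparison of its main probe passed the test. The spontaneous difference of 0.89 ± 0.37 (adjusted p = 0.143) did pass without spontaneous HCC replicate 2 or 4 (adjusted p = 0.0167 and 0.0203 at the lowest and highest). Its second probe was called once, in high-LET HCC against high-LET non-HCC (0.93 ± 0.35, adjusted p = 0.0872).

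**Figure D2:**
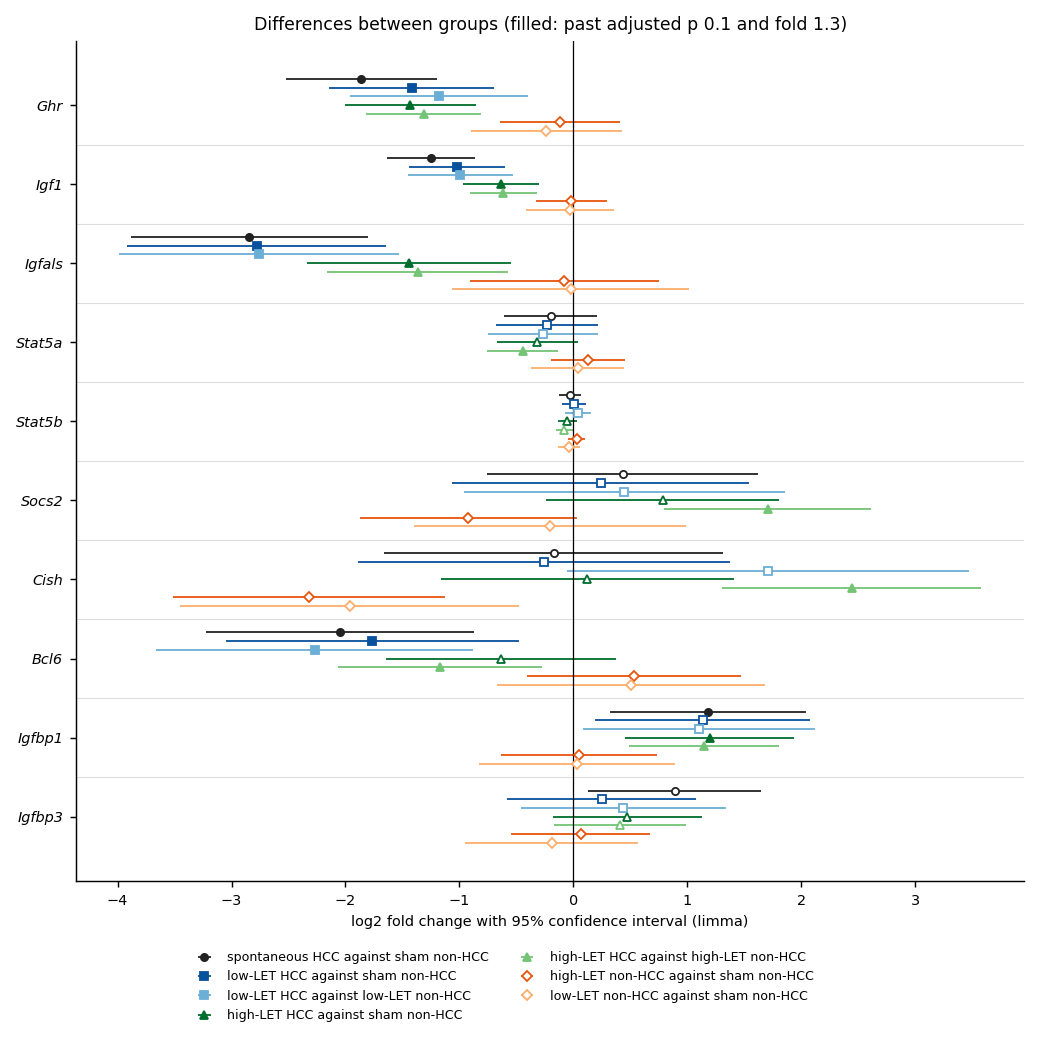
Log2 fold change (horizontal axis) with its 95% interval for each member gene in 5 comparisons of HCC with tumor-free livers and 2 of irradiated with sham tumor-free livers (markers by comparison), with filled markers for called differences. Ghr, Igf1 and Igfals lie left of 0 in the 5 HCC comparisons, Igfals furthest in spontaneous HCC (−2.85), and Cish lies right of 0 when the reference is irradiated tumor-free liver (2.44 for high-LET).

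Counted against sham livers, 5 of the 10 members were called in spontaneous HCC (Ghr, Igf1, Igfals and Bcl6 lower, Igfbp1 higher), beside 14.1% of all genes (6.83% lower, 7.28% higher). The number was 4 in low-LET HCC (Ghr, Igf1, Igfals and Bcl6, all lower), beside 11.3% of genes (5.96% lower, 5.36% higher). It was also 4 in high-LET HCC (Ghr, Igf1 and Igfals lower, Igfbp1 higher), beside 9.96% of genes (5.39% lower, 4.57% higher). The median log2 fold change of the members was −0.19, −0.24 and −0.18, beside medians of −0.00, −0.01 and −0.01 over all genes. These 3 comparisons share the 6 sham livers. Against irradiated tumor-free livers, 4 members were called in low-LET HCC, all lower, beside 9.86% of genes (4.95% lower, 4.91% higher). In high-LET HCC 8 were called, beside 11.7% of genes (6.08% lower, 5.57% higher), with Ghr, Igf1, Igfals, Stat5a and Bcl6 lower and Socs2, Cish and Igfbp1 higher. In low-LET HCC against low-LET non-HCC livers Igfals fell by 2.76 ± 0.60 (adjusted p = 0.0042), Bcl6 by 2.27 ± 0.68 (adjusted p = 0.0419), Ghr by 1.18 ± 0.38 (adjusted p = 0.0667) and Igf1 by 0.99 ± 0.22 (adjusted p = 0.00562). The Ghr call was lost in 6 of 7 fits that left out 1 liver, all but that without low-LET HCC replicate 1 (adjusted p = 0.1 to 0.288). The Bcl6 call was lost without low-LET HCC replicate 2 (adjusted p = 0.166) or low-LET non-HCC replicate 2 (adjusted p = 0.129). Both calls were lost with BeadChip as a fixed term (adjusted p = 0.326 for Ghr and 0.128 for Bcl6). In high-LET HCC against high-LET non-HCC livers Ghr fell by 1.31 ± 0.25 (adjusted p = 0.000501), Igf1 by 0.61 ± 0.14 (adjusted p = 0.00422), Igfals by 1.36 ± 0.39 (adjusted p = 0.0176, and −0.87 without high-LET HCC replicate 3) and Bcl6 by 1.17 ± 0.44 (adjusted p = 0.0834). The second Igf1 probe gave −0.07 ± 0.15 in that comparison (limma adjusted p = 0.879). Igfbp1 was called higher there (adjusted p = 0.0159), with 1 of the 10 reference livers above background, so no size is given. With array weights that Igfbp1 call was lost (limma adjusted p = 0.128). This Bcl6 call was lost in 10 of 17 fits that left out 1 liver (adjusted p = 0.104 to 0.226), those without high-LET HCC replicate 1, 2 or 3 or high-LET non-HCC replicate 1, 3, 4, 7, 8, 9 or 10.

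Cish and Socs2, the feedback inhibitors that STAT5 induces, were called in high-LET HCC against high-LET non-HCC livers but not against sham livers, as were Bcl6 and Stat5a. Cish in sham livers read 6.84, 10.65, 10.62, 10.96, 10.06 and 11.43, and in low-LET non-HCC livers 7.68, 7.20, 9.30 and 8.35. In high-LET non-HCC livers it ran from 6.51 to 10.09 (median 7.31), with 7 of 10 below 8. Sham replicate 1 thus sat with the low irradiated livers and the other 5 sham livers, all above 10, with the highest. In HCC it was 9.31 to 10.41 in spontaneous, 9.39 to 10.50 in low-LET and 8.53 to 11.23 in high-LET tumors, inside the non-HCC range throughout. Against sham livers Cish differed by −0.17 ± 0.73, −0.26 ± 0.80 and 0.12 ± 0.63 in spontaneous, low-LET and high-LET HCC (adjusted p = 0.944, 0.941 and 0.957). Against high-LET non-HCC livers it rose by 2.44 ± 0.56 in high-LET HCC (5.44-fold, adjusted p = 0.00315), with 1.06 to 4.10 on the 3 BeadChips that held both. Against low-LET non-HCC livers the difference in low-LET HCC was 1.71 ± 0.86 and did not pass the test (adjusted p = 0.329).

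Socs2 shared part of that pattern. It was 9.09 to 11.39 in sham livers (median 9.85), 7.78 to 11.66 in high-LET non-HCC livers (median 9.03) and 8.93 to 11.98 in high-LET HCC (median 11.08). In spontaneous HCC the 4 values lay within 10.37 and 10.56. The ranges overlapped, and 2 high-LET HCC (11.94 and 11.98) exceeded all non-HCC livers. Socs2 rose by 1.70 ± 0.44 in high-LET HCC against high-LET non-HCC livers (3.26-fold, adjusted p = 0.00947) and was not called against sham livers (0.78 ± 0.50, adjusted p = 0.433). The second Socs2 probe was not above background on any array.

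Between irradiated and sham tumor-free livers limma called none of the 10 members and no gene at all (0% of genes) for either radiation. At an unadjusted p under 0.05 the 1 member was Cish in both comparisons, among 1499 probes (3.31%) for high-LET and 1498 (3.31%) for low-LET, and an ordinary linear model also called 0. Cish was lower by 2.32 ± 0.58 in high-LET non-HCC livers (95% interval −3.51 to −1.13, unadjusted p = 0.000389, adjusted p = 0.999913) and by 1.96 ± 0.73 in low-LET non-HCC livers (unadjusted p = 0.0112, adjusted p = 0.999894). Without sham replicate 1 the high-LET difference was −2.97 and passed the test (adjusted p = 0.0636). It was negative on each of 3 BeadChips with livers of both groups, from −4.63 to −1.32 for high-LET and from −2.61 to −1.07 for low-LET. Sham replicate 1 (6.84) was on BeadChip 1, which held no high-LET non-HCC liver, so the high-LET values do not include it. On BeadChip 1 the low-LET liver (7.68) was above sham replicate 1 and below sham replicate 2 (10.65). The 2 comparisons share the sham livers. The differences of Ghr, Igf1 and Igfals lay between −0.24 and −0.02 in both.

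Among the 20 non-HCC livers Cish ran opposite to Bcl6 and together with Socs2. Over 45 pairs of members, Cish and Bcl6 had r = −0.69 (permutation p = 0.00108, adjusted over the pairs 0.0486) and rho = −0.76 (permutation p = 0.00021, adjusted 0.00945), and r was −0.82 without the 2 livers farthest from the median of Cish. Within the 10 high-LET non-HCC livers r was −0.77 (permutation p = 0.0112), and within the 6 sham livers −0.64 (exact permutation p = 0.179) with rho = 0.03. Cish and Socs2 had r = 0.64 (permutation p = 0.00234, adjusted 0.0526) and rho = 0.67 (permutation p = 0.00167, adjusted 0.0376), with r = 0.53 without the 2 farthest livers. That relation was 0.73 within high-LET non-HCC livers (permutation p = 0.0142) and 0.76 within sham livers (exact permutation p = 0.112). BeadChips held too few tumor-free livers for values within each. Over the 14 HCC, which belong to different groups and are described without a test, r was 0.13 for Cish and Bcl6 and 0.33 for Cish and Socs2.

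**Figure D3:**
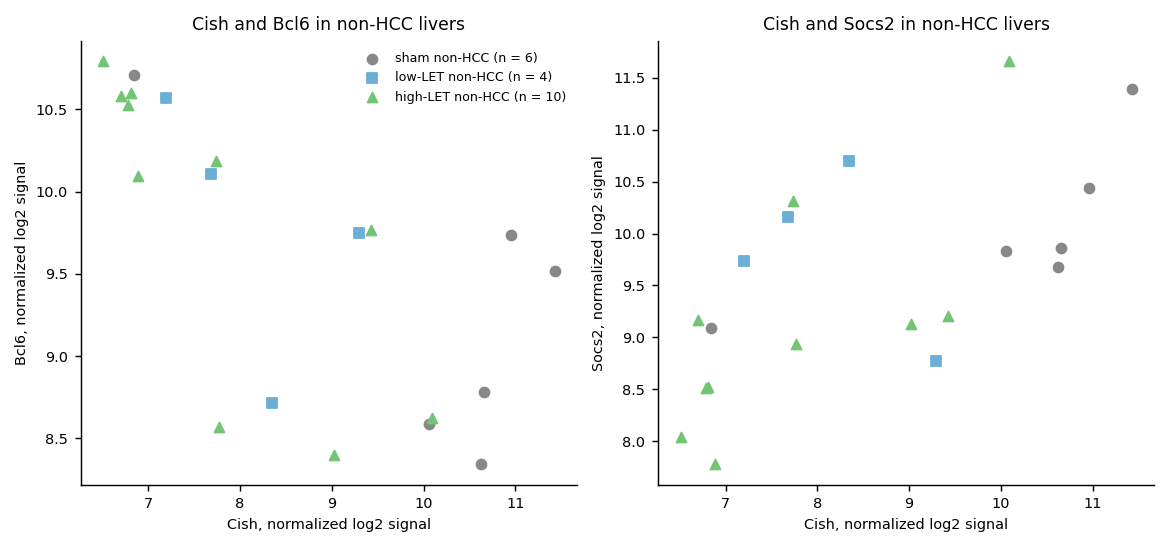
Cish (horizontal axis) against Bcl6 and against Socs2 (vertical axes), all as normalized log2 signal, in the 20 non-HCC livers, 1 point per mouse with the group as the marker. Bcl6 was highest where Cish was lowest (r = −0.69) and Socs2 followed Cish (r = 0.64), with sham replicate 1 at the low end of Cish.

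High-LET HCC were uneven. Replicates 5, 6 and 7 (0.2, 1 and 1 Gy, on 3 BeadChips) had Ghr at 11.96, 11.67 and 11.61, Igfals at 12.50, 11.84 and 12.63, and Igfbp1 below background. Replicates 1 to 4 had Ghr at 9.58, 10.47, 10.12 and 9.58, Igfals at 11.46, 10.74, 8.04 and 9.98, and Igfbp1 at 7.15 to 9.05. The fetal liver and tumor gene Gpc3 read 6.67, 6.69 and 6.74 in replicates 5 to 7 and 9.94 to 12.26 in replicates 1 to 4. Socs2 and Cish did not follow that division, as replicate 4 (11.94 and 11.23) and replicate 5 (11.98 and 10.65) were both high. Stat5a was lowest in replicates 5, 6 and 7 (6.48, 6.64 and 6.51). Whether these 3 samples held less tumor tissue was not tested.

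**Figure D4:**
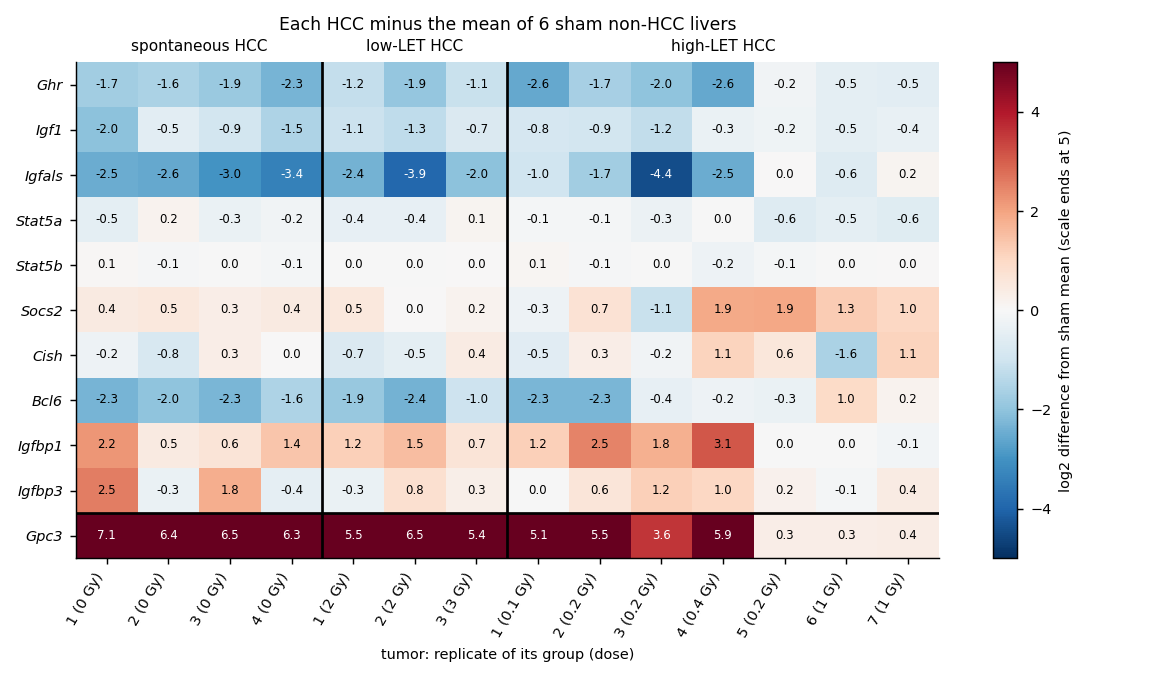
Log2 signal minus the mean of sham livers for each member gene and Gpc3 (rows) in each of the 14 HCC (columns, by group, replicate and dose), blue for lower and red for higher, with the value in each cell. Igfals runs from −4.4 in high-LET replicate 3 to 0.2 in replicate 7.

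With those 3 tumors left out, a choice made after seeing the data, high-LET HCC still had 4 members called against sham livers and 6 instead of 8 against high-LET non-HCC livers. The differences from sham livers widened to −2.20 for Ghr and −2.41 for Igfals. The 3 tumors had been set apart by Ghr, Igfals, Igfbp1 and Gpc3. Shifts of Ghr, Igfals and Igfbp1 without them, here and below, therefore follow from the choice and are no independent result. The counts of called members above include these genes. Socs2 (1.23, adjusted p = 0.13) and Stat5a (−0.25, adjusted p = 0.451) lost their calls. Of the high-LET HCC, the 3 tumors left out were the lowest in Stat5a. Socs2 stood above the sham mean in each of them (1.93, 1.28 and 1.03) and was mixed in replicates 1 to 4 (−0.26, 0.74, −1.12 and 1.89). Changes of these genes and, below, of Igf1 come from leaving out the same tumors and are no independent result either. Set against spontaneous and low-LET HCC, all 7 high-LET HCC had 2 members called, both higher, beside 4.49% of genes (1.56% higher, 2.92% lower). Igf1 was higher by 0.51 ± 0.16 (adjusted p = 0.0777) and Igfals by 1.37 ± 0.42 (adjusted p = 0.075). Neither was called without the 3 tumors (Igf1 0.30, adjusted p = 0.486, and Igfals 0.40, adjusted p = 0.726), when Ghr turned from 0.21 to −0.56 (adjusted p = 0.0955) and Igfbp1 was called higher (0.97, adjusted p = 0.0584). Each of the 2 calls was also lost in 7 of 14 fits that left out 1 tumor. For Igf1 these were the fits without high-LET HCC replicate 4, 5, 6 or 7, low-LET HCC replicate 2 or spontaneous HCC replicate 1 or 4 (adjusted p = 0.123 to 0.183). For Igfals they were those without high-LET HCC replicate 5, 6 or 7, low-LET HCC replicate 2 or spontaneous HCC replicate 2, 3 or 4 (adjusted p = 0.101 to 0.186).

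The test of whether the HCC difference depended on radiation called none of the 10 members by their main probes, beside 0.956% of genes, at the adjusted p of 0.2 used for it. At an unadjusted p under 0.05 there were 3, Igf1, Igfals and Cish (limma adjusted p = 0.467, 0.495 and 0.437), and the ordinary linear model gave 2 at that level. The second Igf1 probe passed (adjusted p = 0.156). Its levels were 11.36 to 11.58 in sham livers and 9.94 to 10.80 in spontaneous HCC, 11.26 to 11.67 and 10.02 to 11.19 in the low-LET pair, and 11.10 to 11.56 and 10.42 to 11.85 in the high-LET pair. Only the high-LET pair overlapped.

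**Figure D5:**
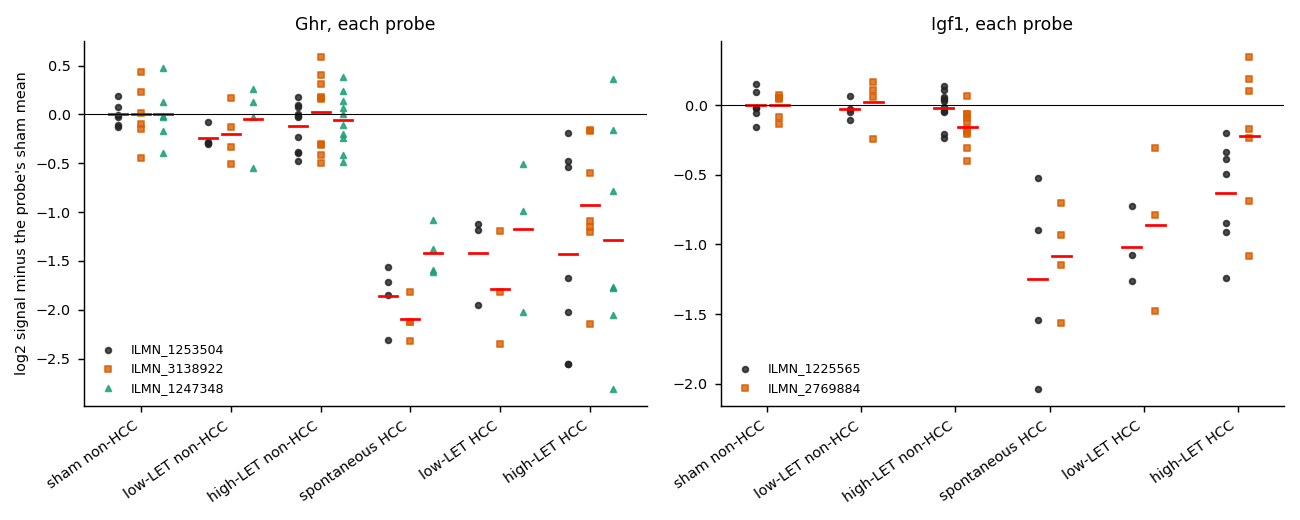
Log2 signal minus the probe's own sham mean (vertical axis) for the 3 Ghr and 2 Igf1 probes in the 6 groups (horizontal axis), with 1 point per mouse, the marker for the probe and a red bar for the group mean. All Ghr probes have negative means in the 3 tumor groups, while the second Igf1 probe (ILMN_2769884) averages −0.22 in high-LET HCC.

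In order of mean level, neighboring groups were mostly not separated beyond their spread. For Ghr the 1 step larger than the larger SD of its neighbors was between low-LET non-HCC and low-LET HCC (1.18). Igf1 had such a step between low-LET non-HCC and high-LET HCC and a smaller one, with overlapping ranges, between high-LET and low-LET HCC. Cish had it between low-LET HCC and low-LET non-HCC, and Igfbp1 between low-LET HCC and high-LET non-HCC. Igfals, Stat5a, Stat5b, Socs2, Bcl6 and Igfbp3 had none.

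Other genes of the pathway were counted by list, against sham livers and beside the 14.1%, 11.3% and 9.96% of all genes called in spontaneous, low-LET and high-LET HCC. Of 16 tested genes of growth hormone receptor signaling and feedback, 2 rose and 1 fell in spontaneous HCC, and 2 rose and none fell in low-LET and in high-LET HCC against sham livers. Shc1 rose by 0.50 ± 0.15 in spontaneous HCC and 0.61 ± 0.16 in low-LET HCC (limma adjusted p = 0.0274 and 0.0163). Pias1 rose in the same groups by 0.41 ± 0.14 and 0.53 ± 0.15 (limma adjusted p = 0.0496 and 0.0243). Socs3, a cytokine-induced inhibitor of JAK and STAT signaling, rose by 1.39 ± 0.39 in high-LET HCC (adjusted p = 0.0225). The phosphatase Ptpn1, which acts on JAK2, rose there by 0.43 ± 0.15 (adjusted p = 0.0636). Of 12 IGF receptors, ligands and binding proteins, 1 rose and 1 fell in spontaneous HCC and none was called in the other 2. The riser was Igf2, the fetal growth factor, up 5.07 ± 0.76 in spontaneous HCC (adjusted p = 2.52e-05) against 0.05 in both irradiated tumor groups, and Igfbp5 fell by 1.31 ± 0.40 (adjusted p = 0.0312).

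Of 9 tested liver transcription factors tied to growth hormone, 2 rose and 1 fell in spontaneous HCC, against 1 up and 2 down in low-LET HCC and 3 up and 2 down in high-LET HCC, beside the same shares of all genes (14.1%, 11.3% and 9.96%). Tox, a nuclear factor higher in female than in male mouse liver, rose by 1.82 ± 0.28, 1.61 ± 0.30 and 1.10 ± 0.24. Cux2, a female-specific repressor, rose in spontaneous (1.60 ± 0.34) and high-LET HCC (1.43 ± 0.30) and was 0.14 ± 0.38 in low-LET HCC. Foxa1 was lower in high-LET HCC (−0.84 ± 0.20, limma adjusted p = 0.00693) and Nr1i3 in low-LET HCC (−1.61 ± 0.42, limma adjusted p = 0.0125). Of 9 genes of the fasting, insulin and glucocorticoid response, 2 rose and 1 fell in each tumor group. The glucocorticoid target Fkbp5 rose by 2.47 ± 0.30, 1.65 ± 0.33 and 1.87 ± 0.26 in spontaneous, low-LET and high-LET HCC, while the gluconeogenic enzyme gene G6pc fell by 2.50 ± 0.63, 2.34 ± 0.69 and 1.74 ± 0.55. Per1 rose by 1.87 ± 0.45, 1.70 ± 0.50 and 1.82 ± 0.39 in the same order. Of 12 male-typical liver genes 9 were lower in each tumor group and 1 was higher in low-LET HCC. Over all genes the lower share was 6.83%, 5.96% and 5.39% in spontaneous, low-LET and high-LET HCC. Of 11 tested female-typical genes 5, 3 and 5 were higher and none lower, beside 7.28%, 5.36% and 4.57% of all genes higher. Of 8 acute phase genes 2 were higher and none lower in each. How these lists relate to the members was not tested. No gene of any list was called between irradiated and sham tumor-free livers.

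Levels of other cell types' markers moved in some tumors too. As log2 of the summed signal, macrophage markers were 10.2 to 10.6 in sham livers. They were 8.80 to 10.4, 9.14 to 10.5 and 9.50 to 11.4 in spontaneous, low-LET and high-LET HCC. Of 5 macrophage genes 2 were called higher in high-LET HCC than in sham livers, beside 4.57% of all genes. On that scale endothelial markers were 11.8 to 12.4 in sham livers and 10.1 to 12.6 in spontaneous HCC. In spontaneous HCC 1 of 6 genes was lower than in sham livers (6.83% of all genes). In high-LET HCC the endothelial sum was 11.5 to 12.9. There 2 of 6 genes were higher than in sham livers (4.57% of all genes) and 3 of 6 higher than in high-LET non-HCC livers (5.57%). Of 6 hepatocyte markers 1 was lower in low-LET HCC than in sham livers (5.96% of all genes), and none was called in spontaneous or high-LET HCC. Against low-LET non-HCC livers 1 was higher and 1 lower in low-LET HCC (4.91% and 4.95% of all genes). No bile duct or lymphocyte marker was called against sham livers. Of 5 stellate cell and fibroblast markers 1 was lower in spontaneous HCC (6.83% of all genes) and 1 higher in low-LET HCC (5.36%). The part of these cell types in the members' differences was not tested.

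Over the 14 HCC, the genes whose levels ran closest to a member's by Pearson's r are given as a description, since all values share arrays and tumor groups. For each member below they are the highest of 18989 to 18991 candidate probes, a selection that favors high r. Ghr ran with Klkb1 (0.95), Keg1 (0.94) and Slc22a28 (0.93), the first of which encodes plasma prekallikrein, a secreted hepatocyte protease. Igfals ran with Narf (0.92), Vmo1 and Tex264 (both 0.91). Socs2 ran with the tyrosine catabolic enzyme gene Hpd (0.93), Dipk1a (0.91) and Ahcy (0.90). Bcl6 ran with Xdh, which encodes xanthine dehydrogenase (0.94), Pogk and Aatk (both 0.90). Over the 20 non-HCC livers r for these pairs ran from −0.26 (Bcl6 with Xdh) to 0.68 (Ghr with Keg1).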

How the data were processed

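RNA of 34 mouse livers was measured on Illumina BeadChips. The authors summarized bead signals in GenomeStudio, and the deposited non-normalized values are mean intensities per probe on a linear scale. The authors' second table, with background removed by MBCB, quantile normalization and log2 transformation, was used as an alternative. When ranked within each array, its probes followed the intensities with a correlation of 0.99997 or more. In R 4.3.3 with limma 3.58.1, the intensities underwent normexp correction (offset 50) and then quantile normalization, with log2 taken last. Of 45281 probes 45219 were tested, 34885 of the 45281 have 1 gene symbol, 18 several and 10378 none, and the platform annotation can be old. A probe counted as above background past the 0.95 quantile of a background distribution fitted on each array. Groups came from the labels for radiation and pathology. All 6 group means were fitted together, and the brightest probe on average stood for each gene. The thresholds were those of the study's methods, an adjusted p of 0.1 with a fold change of 1.3, and for the interaction F-test an adjusted p of 0.2. Pathway lists name up to 4 genes with the smallest adjusted p. The fit was tested on simulated data. The members and lists were chosen with earlier results of these data known. Correlations used 100000 permutations. Promoters came from RefSeq (GRCm38.p6). Alternatives covered normalization, background correction, the probe filter, BeadChip blocks, array weights, samples fitted, thresholds and leaving out each liver. The number of arrays limits the precision.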

Additional observations from a re-analysis of the deposited data

Results flagged for a closer look

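In 4 of 50 sets of gene and group, the highest or lowest liver stood apart from the rest by the Dixon gap criterion, which chance alone meets in about 1 of 20 groups. Ghr in low-LET non-HCC replicate 1 (7 Gy, BeadChip 1) was 12.07 against 11.86 for the nearest liver, a gap of 0.916 of the group's range. Cish in sham replicate 1 (BeadChip 1) was 6.84 against 10.06, a gap of 0.702 of the range. Igfbp3 in sham replicate 4 (BeadChip 5) was 7.65 against 7.07, a gap of 0.777 of the range. Igfbp3 in high-LET non-HCC replicate 2 (BeadChip 3) was 7.73 against 7.33, a gap of 0.5 of the range.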

How the results depend on the processing

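Of 1862 values of member genes under other settings, 1751 kept their side of the threshold, 93 lost the call and 17 gained it. A change of sign occurred in 52, none of them called in the analysis as reported and 1 called under the alternative, which was Ghr in high-LET HCC against low-LET and spontaneous HCC (−0.56 with high-LET HCC limited to replicates 1 to 4, against 0.21). That setting left out the tumors set apart partly by their high Ghr, so this change of sign is no independent result, and its cause was not tested. For high-LET HCC against high-LET non-HCC, 8 members were called, 5 with array weights and 6 to 8 when 1 liver was left out. For high-LET HCC against low-LET and spontaneous HCC, 2 were called, 1 with BeadChip as a fixed block, 4 with array weights, 0 with only the groups compared, an ordinary linear model, scaling to a common median or adjusted p under 0.05 and fold above 1.5, and 0 to 3 when 1 tumor was left out. For high-LET HCC against sham non-HCC, 4 were called, 2 with a fixed block, array weights, only the groups compared or median scaling, and 4 in each fit without 1 liver. For low-LET HCC against low-LET non-HCC, 4 were called, 2 with a fixed block or median scaling, and 2 to 4 when 1 liver was left out. For the interaction none was called by main probe, 1 (Igf1) by any probe, 2 (Igf1 and Igfals) with array weights, and 0 to 1 when 1 liver was left out, namely Igfals without high-LET HCC replicate 3, Cish without sham replicate 1 and Igf1 without spontaneous HCC replicate 2. For high-LET non-HCC against sham the count was 0, and 0 to 1 when 1 liver was left out (Cish without sham replicate 1). Leaving out 1 liver gave 3 to 4 calls in low-LET HCC and 4 to 6 in spontaneous HCC against sham, and 0 to 0 in low-LET non-HCC livers.

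Probe counts moved more. The interaction called 317 probes, 6 with a fixed block, 206 with a random block, 160 with an ordinary linear model, 58 with median scaling, 31 at the stricter threshold, 679 after a filter on dim probes and 3847 with array weights. Median scaling gave 1405, 1744 and 2237 probes for high-LET, low-LET and spontaneous HCC against sham (3015, 3385 and 4211 otherwise), 2294 and 1419 in high-LET and low-LET HCC against their irradiated livers (3603 and 2960) and 392 in high-LET against other HCC (1456). The authors' normalized values gave 4893, 6470 and 2250 in the high-LET comparisons with sham, high-LET non-HCC and other HCC. The fit on only the groups compared gave 5 for high-LET against other HCC and 1696 against sham. No paired analysis was possible because replicate numbers were given in accession order and link no livers. Stat5b, the second Socs2 probe and Igfbp1 in non-HCC livers were limited by background.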
